A study of Rattus norvegicus with 12 samples.

Results

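This experiment compared the L5 dorsal root ganglion (DRG) of rats given a Neat1 shRNA with that of rats given a control shRNA, both after spinal nerve ligation (SNL), a nerve injury that produces neuropathic pain. The ganglion holds the cell bodies of primary sensory neurons with their satellite glia, Schwann cells, vessels, sheath cells and resident immune cells. The rats were Sprague Dawley, male by the sample labels, while the study's methods name male and female rats of 5 to 6 weeks of age for all experiments. Vectors made from adeno-associated virus (AAV) of serotype 6 were injected into the L5 DRG 7 days before SNL, and the ganglion was taken 14 days after SNL. The vector of the SNL+control shRNA group carried a scrambled hairpin, that of the SNL+Neat1 shRNA group a hairpin against Neat1, and both plasmids also encoded EGFP. The methods describe expression of the vector in neurons, and no group that received a vector without SNL was analysed here. The members are all genes with a symbol in the deposited table of this comparison, that is 16865 symbols from 18121 of its 28745 rows. Of these, 11441 were measured, reaching 1 FPKM in either group. FPKM counts fragments per kilobase of transcript, scaled to the mapped fragments of the library. The 3 libraries of each group were deposited as 1 FPKM value, so no error or replicate check could be computed from the table. The test columns that came with it were not used, and the depth of the libraries is unknown.

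Every difference is given as the log2 of FPKM + 1 in the group labelled Neat1 shRNA minus that in the control shRNA group, a scale that understates the changes of weakly expressed genes. A gene was called lower or higher where FPKM + 1 differed by at least 1.5-fold, which held for 307 symbols lower (2.68% of those measured) and 80 higher (0.699%) in the group labelled Neat1 shRNA. A gene that reaches 1 FPKM in 1 group only enters because it is higher there, as did 73 of those called lower and 21 of those called higher. Among the 11118 symbols with at least 1 FPKM in both groups, 234 were called lower and 59 higher. The study chose its changed genes for this comparison by p-value without this fold, so a gene not called here can be on its lists. Pairs of levels are given in the order control shRNA, labelled Neat1 shRNA. For context, levels in the Control group, the contralateral side without a vector, and in the SNL group without a vector are set beside them. These come from a table that was assembled and normalized separately, so only the order of magnitude can be set against the shRNA groups.

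Neat1 is a long non-coding RNA of the nucleus and the scaffold of paraspeckles, bodies that hold RNA-binding proteins such as Sfpq and Nono. It carries no symbol in the table and was read from the strongest unnamed row beside Frmd8, at chr1:228133862-228137360 of the rat build rn5, a row of 3.50 kb. Its level was 355 FPKM in the control shRNA group and 374 FPKM in the group labelled Neat1 shRNA. The log2 difference was 0.07. The row was therefore not lower in the group whose label names a Neat1 hairpin, and each direction below is that of the group by its label. By qPCR, the study reports that its Neat1 shRNA vector significantly decreased Neat1 in this ganglion after SNL. No qPCR values were examined here. Frmd8, the neighbour of the Neat1 row, had 78.9 and 88.4 FPKM. In the other table the Neat1 row had 141 FPKM in Control and 294 FPKM in SNL. The libraries were made from polyadenylated RNA, and the longer Neat1 isoform, which is not polyadenylated, was not measured. Of the proteins that form paraspeckles or bind nuclear RNA, 31 were measured and none was called, with a median difference of -0.04. Sfpq had 72.3 and 64.1 FPKM and Nono had 83.8 and 79.9 FPKM. The machinery of RNA interference, on which a hairpin depends, had 16 measured members and none called. The nuclease Drosha had 13.5 and 13.6 FPKM and Ago2, the argonaute that cuts a target, 5.81 and 5.13 FPKM.

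Markers of a sensory ganglion were present in both groups. The 7 neuronal markers found summed to 6620.1 FPKM in the control shRNA group and 7172 FPKM in the group labelled Neat1 shRNA, and the 4 satellite glia markers to 299.7 and 277 FPKM. Markers of immune cells and of myelin differed more. T cell markers (4 of 4 measured) summed to 89.5 and 46.2 FPKM. Most of that sum was Cd4, which macrophages of the rat also carry, at 55.2 and 37.8 FPKM, and Cd3e, Cd3d and Cd8a had 13.4 and 3.40, 9.07 and 1.84 and 11.9 and 3.08 FPKM. NK cell markers (3 of 3) summed to 13.2 and 3.79 FPKM, dendritic cell markers (4 of 4) to 15.8 and 5.58 FPKM, and macrophage markers (5 of 5) to 198 and 154 FPKM. The 2 B cell markers measured of 4 brought that sum to 4.65 and 0.712 FPKM. Markers of myelinating Schwann cells summed to 4597 and 6498 FPKM and those of mural cells to 107 and 160.1 FPKM. Fibroblast markers summed to 1497 and 1567 FPKM and endothelial markers to 57.6 and 53.8 FPKM. The neutrophil markers Mpo and Elane and the adipocyte markers Adipoq and Plin1 lay at or near 0 in both groups. In whole ganglia, fewer cells of a type and less RNA per cell cannot be told apart, and the part of these cell types in the differences below was not tested.

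Over all measured symbols the median difference was -0.0032, and the central 90% lay between -0.39 and 0.28. The levels of the called genes were set beside the injury itself. Of the 301 symbols called lower that also had a row in the other table, 181 were at least 1.5-fold higher in SNL than in Control and 6 were lower, where 16.4% of all measured symbols were higher. Their median level was 0.577 FPKM in Control, 2.23 FPKM in SNL, 6.67 FPKM with control shRNA and 2.86 FPKM in the group labelled Neat1 shRNA. These symbols were chosen by the order of the shRNA groups, so that order is no result, and the separately normalized tables allow no finer reading of these medians. Of the 78 symbols called higher with such a row, 11 were higher and 24 lower after SNL, where 12.1% of all measured symbols were lower, and their median levels were 7.20, 4.86, 4.31 and 8.93 FPKM in the same order. Members of 76 gene lists were then examined, which hold 1737 of the measured symbols. In 13 lists the median was at or below -0.2, in 4 at or above 0.2, and in 59 between. Each of these 13 lists had a positive median for SNL against Control. So did each of the 4 lists at or above 0.2 and many of those between. Some lists share members, such as Ccr7 in the lymphocyte chemokine and dendritic cell lists. In 28 lists no member was called.

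**Figure D1:**
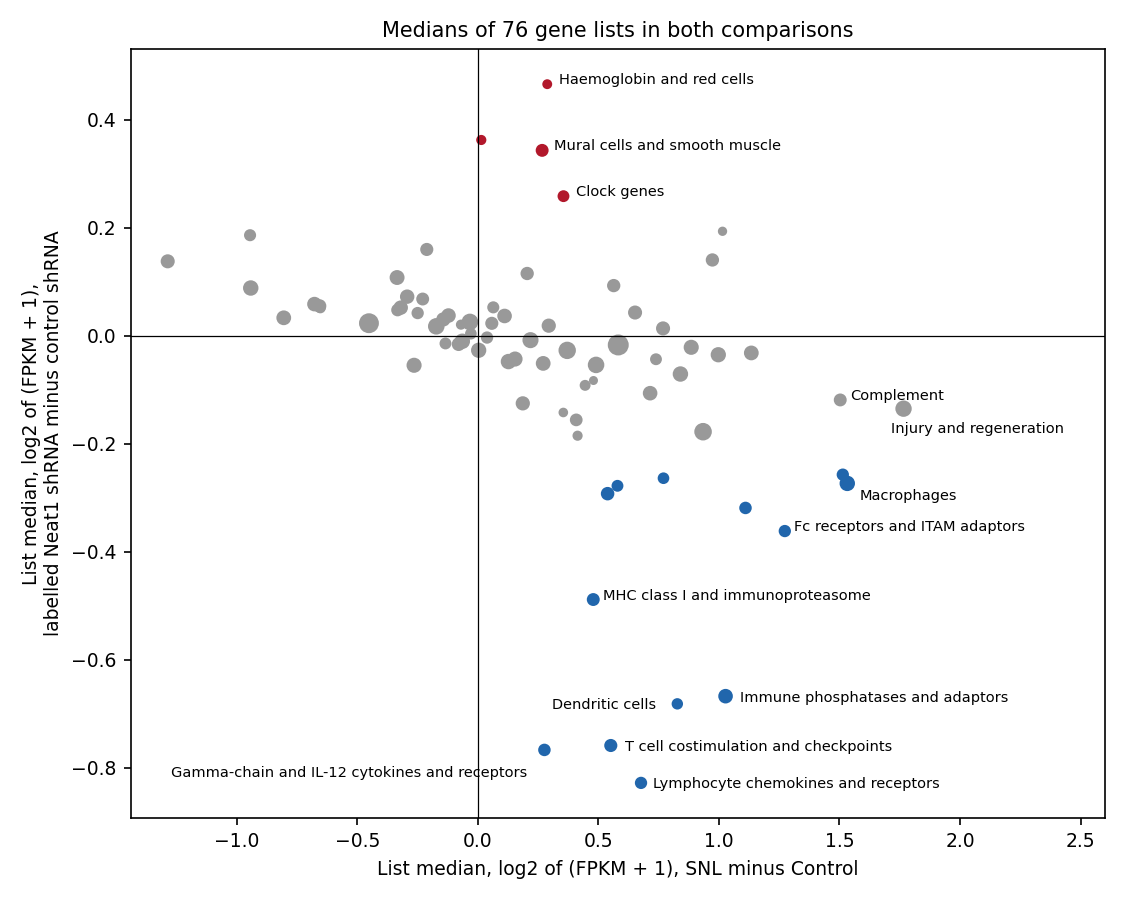
Each point is 1 of 76 gene lists, placed by its median difference for SNL against Control on the x axis and for the labelled Neat1 shRNA against control shRNA on the y axis (log2 of FPKM + 1, point size by number of measured members). The 13 lists in blue lie at or below -0.2 on the y axis and the 4 in red at or above 0.2. Both sets lie right of 0 on the x axis.

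Peripheral nerve injury brings macrophages and lymphocytes into the ganglion. Chemokines draw them there, cytokine receptors and costimulatory molecules control their activation, and a set of phosphatases, adaptors and cytoskeletal regulators carries the signal inside them. Among chemokines and receptors of lymphocytes, 12 of 16 measured genes were called lower and 1 higher, with a median of -0.83. Among those with at least 1 FPKM in both groups, 10 of 14 were called lower (median -0.83). Cxcl13, the B cell attractant of lymphoid follicles, stood at 1.0005 FPKM in Control and 3.4 FPKM in SNL. It reached 51.9 FPKM with control shRNA and was 2.81 FPKM in the group labelled Neat1 shRNA, a difference of -3.79. Ccr7, the receptor that guides dendritic cells and naive T cells to lymphoid tissue, had 6.65 and 0.711 FPKM (-2.16). Its ligands went opposite ways, with Ccl19 at 8.79 and 4.9 FPKM (-0.73) and Ccl21 at 8.06 and 25.8 FPKM (1.57), the only member called higher. Cxcl9, Cxcl10 and Cxcl11 are the interferon-induced ligands of Cxcr3 on effector T cells. They had 80.7 and 20.7, 25.02 and 6.02 and 5.39 and 1.002 FPKM, and Cxcr3 itself 6.83 and 1.62 FPKM. Ccl5, made by T and NK cells among others, had 18.9 and 5.84 FPKM (-1.54). Xcl1, the ligand of the dendritic cell receptor Xcr1, had 6.81 and 3.23 FPKM. Cxcr4 was also called lower (11.7 and 6.41 FPKM), while its ligand Cxcl12, made by stroma, was at 33.8 and 33.5 FPKM.

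The common gamma-chain cytokines sustain lymphocytes, and IL-12 directs T cells towards interferon gamma. Of 17 measured members of these families, 10 were called lower and none higher, with a median of -0.77. Of these 10, 6 lay under 1 FPKM in the group labelled Neat1 shRNA, Il2ra, Il12b, Il12rb2 and Tbx21 among them, and entered through the control shRNA group alone. Among the 11 members with at least 1 FPKM in both groups 4 were called lower and the median was -0.38, and over all 25 found it was -0.36. The receptor chains Il2rb (9.49 and 2.15 FPKM), Il2rg (20.98 and 8.57 FPKM), Il2ra (2.89 and 0.8 FPKM) and Il21r (9.16 and 3.46 FPKM) were all lower. The shared IL-12 and IL-23 subunit Il12b had 1.9 and 0.131 FPKM, the receptor chain Il12rb2 1.35 and 0.164 FPKM, the signal transducer Stat4 3.32 and 1.81 FPKM and Tbx21, the master regulator of type 1 T cells, 2.32 and 0.742 FPKM. The cytokine Il15, which many non-lymphoid cells make, was at 4.87 and 4.85 FPKM, and Stat6, the transducer of IL-4, at 38.5 and 38.2 FPKM. Among 20 costimulatory and checkpoint genes of T cells, 13 were called lower and none higher, with a median of -0.76. Here 8 of the 13 entered through the control shRNA group alone, among them Ctla4, Icos and Foxp3. Of the 11 members with at least 1 FPKM in both groups 5 were called lower (median -0.53), and the median over all 23 found was -0.64. Those called included the adhesion receptors Cd2 (8.46 and 2.74 FPKM) and Cd7 (18.2 and 7.09 FPKM), the inhibitory receptors Lag3 (5.28 and 1.41 FPKM) and Ctla4 (1.96 and 0.374 FPKM), and the costimulator Icos (3.13 and 0.795 FPKM). Foxp3, which defines regulatory T cells, had 1.23 and 0.252 FPKM. Cd274, the ligand of the PD-1 receptor, is also made by cells other than lymphocytes and had 14.5 and 11.3 FPKM, a difference of -0.34 that was not called.

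All 28 measured phosphatases, adaptors and cytoskeletal regulators of leukocytes had a negative difference, and 17 were called lower (median -0.67). Of these 17, 2 entered through the control shRNA group alone, Skap1 among them. Among the 26 members with at least 1 FPKM in both groups 15 were called lower (median -0.65). Ptprc, the CD45 phosphatase carried by all nucleated blood cells, was at 0.956 FPKM in Control, 5.85 FPKM in SNL, 17.2 FPKM with control shRNA and 7.04 FPKM in the group labelled Neat1 shRNA (-1.18). Ptpn22, which restrains T cell receptor signalling, had 4.69 and 1.07 FPKM, and the T cell adaptor Skap1 4.05 and 0.903 FPKM. Rac2, the Rac GTPase of blood cells, had 45.8 and 19.5 FPKM (-1.19), and Coro1a, an actin-binding protein of leukocytes, 87.4 and 54.2 FPKM. Lcp1, an actin bundler of leukocytes and a strongly expressed member, had 142 and 108 FPKM, and Evl, which neurons also express, 83.2 and 78.4 FPKM.

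Among TNF superfamily ligands and receptors, 7 of 22 were called lower and none higher (median -0.29). Of these 7, 5 entered through the control shRNA group alone, among them Lta, Cd27, Tnfrsf9 and Tnfrsf18. Of the 15 members with at least 1 FPKM in both groups 2 were called lower and the median was -0.08. Those called included Ltb, the lymphotoxin beta subunit (15.03 and 4.58 FPKM), and Lta (1.26 and 0.202 FPKM). The costimulators Cd27 (5.57 and 0.824 FPKM), Tnfrsf9 (2.19 and 0.513 FPKM) and Tnfrsf18 (2.72 and 0.857 FPKM) were called too. So was Cd40, which receives T cell help on antigen-presenting cells (4.21 and 1.86 FPKM). Tnfrsf14, a receptor of the family that was not in the list, had 19.3 and 2.53 FPKM (-2.52). Widely expressed receptors stood near 0, with the lymphotoxin receptor Ltbr at 43.8 and 43.9 FPKM, Tnfrsf21 at 95.9 and 101 FPKM and the TNF receptor Tnfrsf1a at 62.6 and 58.02 FPKM.

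**Figure D2:**
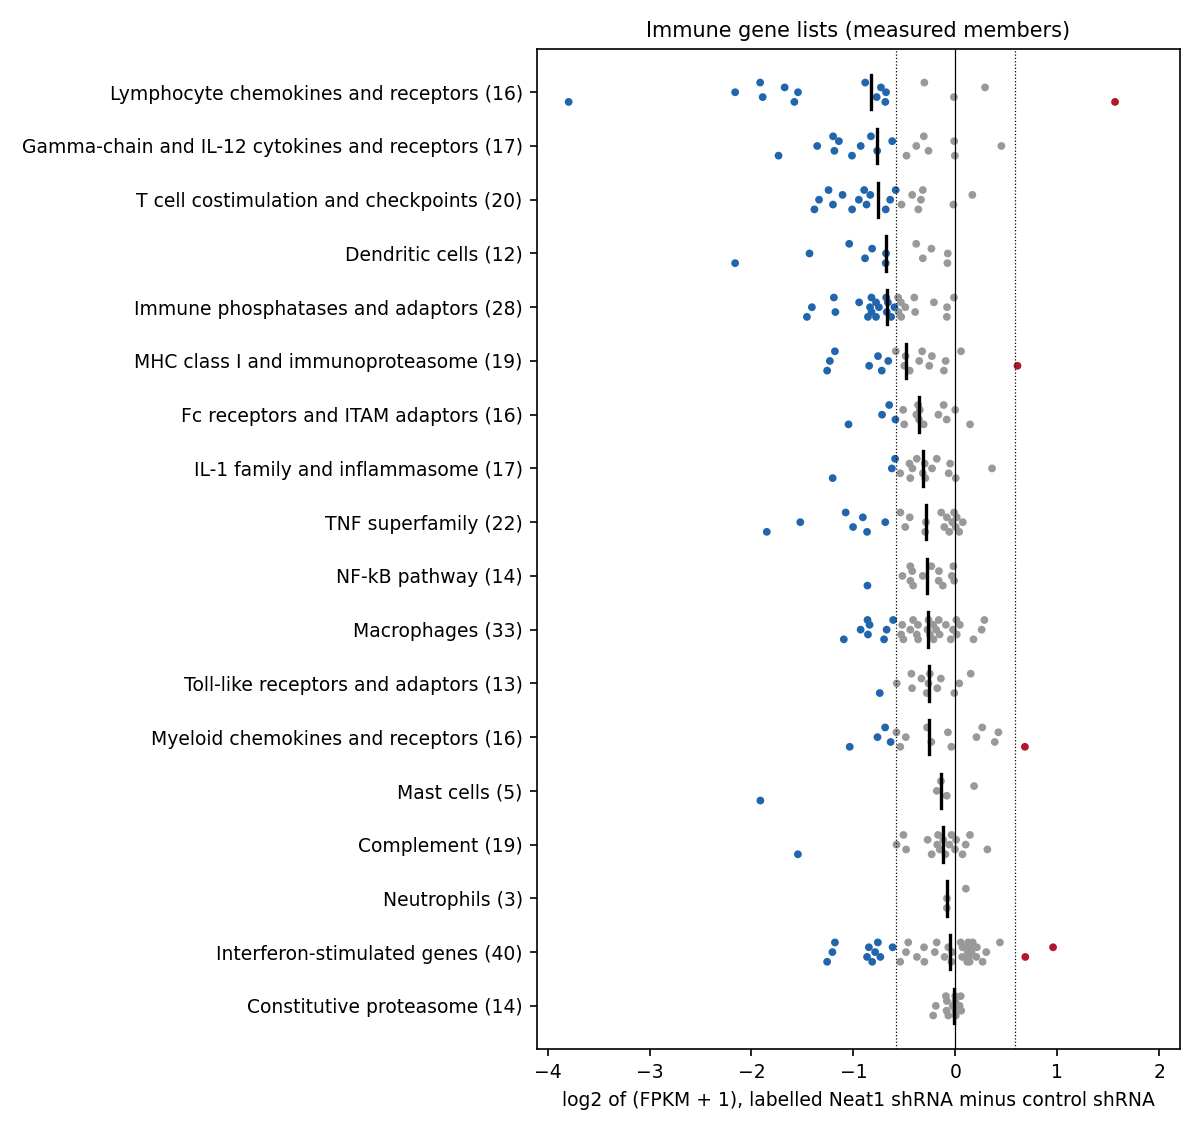
Points are the measured members of 18 immune gene lists (numbers in brackets) on the x axis as log2 of (FPKM + 1), labelled Neat1 shRNA minus control shRNA, with black bars at list medians, dotted lines at 1.5-fold, blue for called lower and red for called higher. Medians run from -0.83 for lymphocyte chemokines to -0.01 for the constitutive proteasome, and the point farthest left is Cxcl13 at -3.79.

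Macrophages clear debris and present antigen in an injured ganglion. Of 33 measured macrophage genes, 8 were called lower and none higher (median -0.27), after a median difference of 1.53 for SNL against Control. Of the 33, 27 had a negative difference. Csf1r, the receptor for the macrophage growth factor, had 6.79 FPKM in Control, 33.7 FPKM in SNL, 47.04 FPKM with control shRNA and 40.3 FPKM in the group labelled Neat1 shRNA (-0.22). Other genes of the lineage were not called but more negative, with Aif1 at 108 and 74.7 FPKM (-0.52), Emr1, the F4/80 antigen, at 9.74 and 6.43 FPKM (-0.53) and the transcription factor Spi1 at 22.6 and 15.5 FPKM (-0.51). Trem2 had 20.9 and 21.5 FPKM, Gpnmb 58.3 and 58.7 FPKM and Spp1 313 and 308 FPKM, and Lgals3, with 453 and 552 FPKM (0.28), was the most positive member. Called lower were Lyz2, a lysozyme of myeloid cells (1195 and 627 FPKM, -0.93), and the cytosolic subunits Ncf1 (35.6 and 16.1 FPKM) and Ncf4 (9.11 and 5.22 FPKM) of the phagocyte NADPH oxidase, which makes superoxide. Its membrane subunits Cybb (17.97 and 13.7 FPKM) and Cyba (78.9 and 57.7 FPKM) did not reach the threshold. Cd53, Laptm5 and Itgb2, also called, are shared with lymphocytes.

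All 12 measured dendritic cell genes had a negative difference, with 7 called lower and a median of -0.68. Among the 10 with at least 1 FPKM in both groups 5 were called lower (median -0.53). Those called included Clec9a (3.79 and 1.59 FPKM), Xcr1 (1.3 and 0.433 FPKM) and the transcription factor Batf3 (8.49 and 4.39 FPKM) of cross-presenting dendritic cells, and the chemokines Ccl22 (8.55 and 2.54 FPKM) and Ccl17 (30.7 and 14.4 FPKM), which attract Ccr4-bearing T cells. Fscn1, an actin bundler of mature dendritic cells that neurons also make, had 90.3 and 85.5 FPKM. Neutrophil and mast cell genes were mostly too low to be measured (3 of 13 and 5 of 16 listed). The alarmins S100a8 (3.29 and 3.05 FPKM) and S100a9 (3.45 and 3.77 FPKM) were close to equal, and the mast cell protease Mcpt2 was called lower (4.33 and 0.416 FPKM). Mcpt2 entered through the control shRNA group alone.

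Fc receptors and the ITAM adaptors and kinases behind them had 4 of 16 called lower and none higher (median -0.36). The NK and T cell adaptor Hcst had 12.9 and 5.71 FPKM and the receptor Fcgr3a 12.5 and 7.63 FPKM, while the shared chain Fcer1g, on a row joined with another gene, had 203 and 181 FPKM. Chemokines that recruit myeloid cells had 4 of 16 called lower and 1 higher (median -0.26). The monocyte attractant Ccl7 had 14.7 and 6.68 FPKM (-1.04). Its relative Ccl2, with 34.9 and 23.1 FPKM, lay just short of the threshold at -0.58, and Cxcl16 had 63.2 and 40.3 FPKM. Pf4, the platelet factor that macrophages also make, was the member called higher (17.8 and 29.1 FPKM, 0.68), and Il34, the other ligand of Csf1r, had 30.9 and 40.7 FPKM.

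Interferon gamma, a product of T and NK cells, induces antigen presentation, guanylate-binding proteins and the Cxcr3 ligands in part through Irf1. Type I interferons induce a partly separate antiviral set, in part through Stat2 and Irf9. The list of 40 measured interferon-stimulated genes had a median of -0.05, close to that of all symbols, but a wide spread, with 10 called lower and 2 higher. Its members lay below 0 in 22 cases and above 0 in 18. A pair of groups by inducing interferon was then formed with the values in view and in part from outside the list, so the counts describe the genes chosen and support nothing about the interferons. The interferon gamma group held 10 genes of the list, 8 of them called lower, and 21 others, and the type I group held 18 of the list and 3 others, while 12 of the list were in neither. Of 31 measured genes of the interferon gamma group, 17 were called lower and none higher (median -0.74). Of these 17, 1 entered through the control shRNA group alone. Of 21 genes of the type I group, none was called lower, 2 were called higher and 15 had a positive difference (median 0.13). Among the first, the transcription factor Irf8 stood at 1.89 FPKM in Control, 11.2 FPKM in SNL, 37.8 FPKM with control shRNA and 16.1 FPKM in the group labelled Neat1 shRNA (-1.18), and Irf1 at 5.14, 10.999, 31.9 and 17.7 FPKM in the same order. The guanylate-binding protein Gbp2 had 96.5 and 52.4 FPKM, the immunity-related GTPases Igtp 45.2 and 25.8 FPKM and Ifi47 30.4 and 12.6 FPKM, and Socs1, the feedback inhibitor of the receptor, 7.84 and 3.91 FPKM. Ciita, the switch of MHC class II genes, had 9.06 and 3.99 FPKM. Among the second, the ubiquitin-like Isg15 had 16.5 and 20.1 FPKM, the GTPases Mx1 and Mx2 9.97 and 10.9 and 39.9 and 44.6 FPKM, the transcription factor Irf7 10.3 and 14.3 FPKM (0.44) and Ifi27 323 and 355 FPKM. The oligoadenylate synthetases Oas1b and Oas1a, each on a row joined with near relatives, were those called higher, with 2.93 and 6.62 and 2.9 and 5.27 FPKM. Bst2, which tethers virions to the membrane, was the member of this set with the most negative difference (133 and 95.96 FPKM, -0.46). Among receptor chains and kinases all 7 measured members had a negative difference (median -0.19). Ifngr1 had 101 and 89.04 FPKM, Ifnar1 29.1 and 28.6 FPKM and Jak1 66.8 and 59.2 FPKM, and only Jak3, the kinase of the gamma-chain, on a row joined with Insl3, was called lower (10.3 and 5.78 FPKM).

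**Figure D3:**
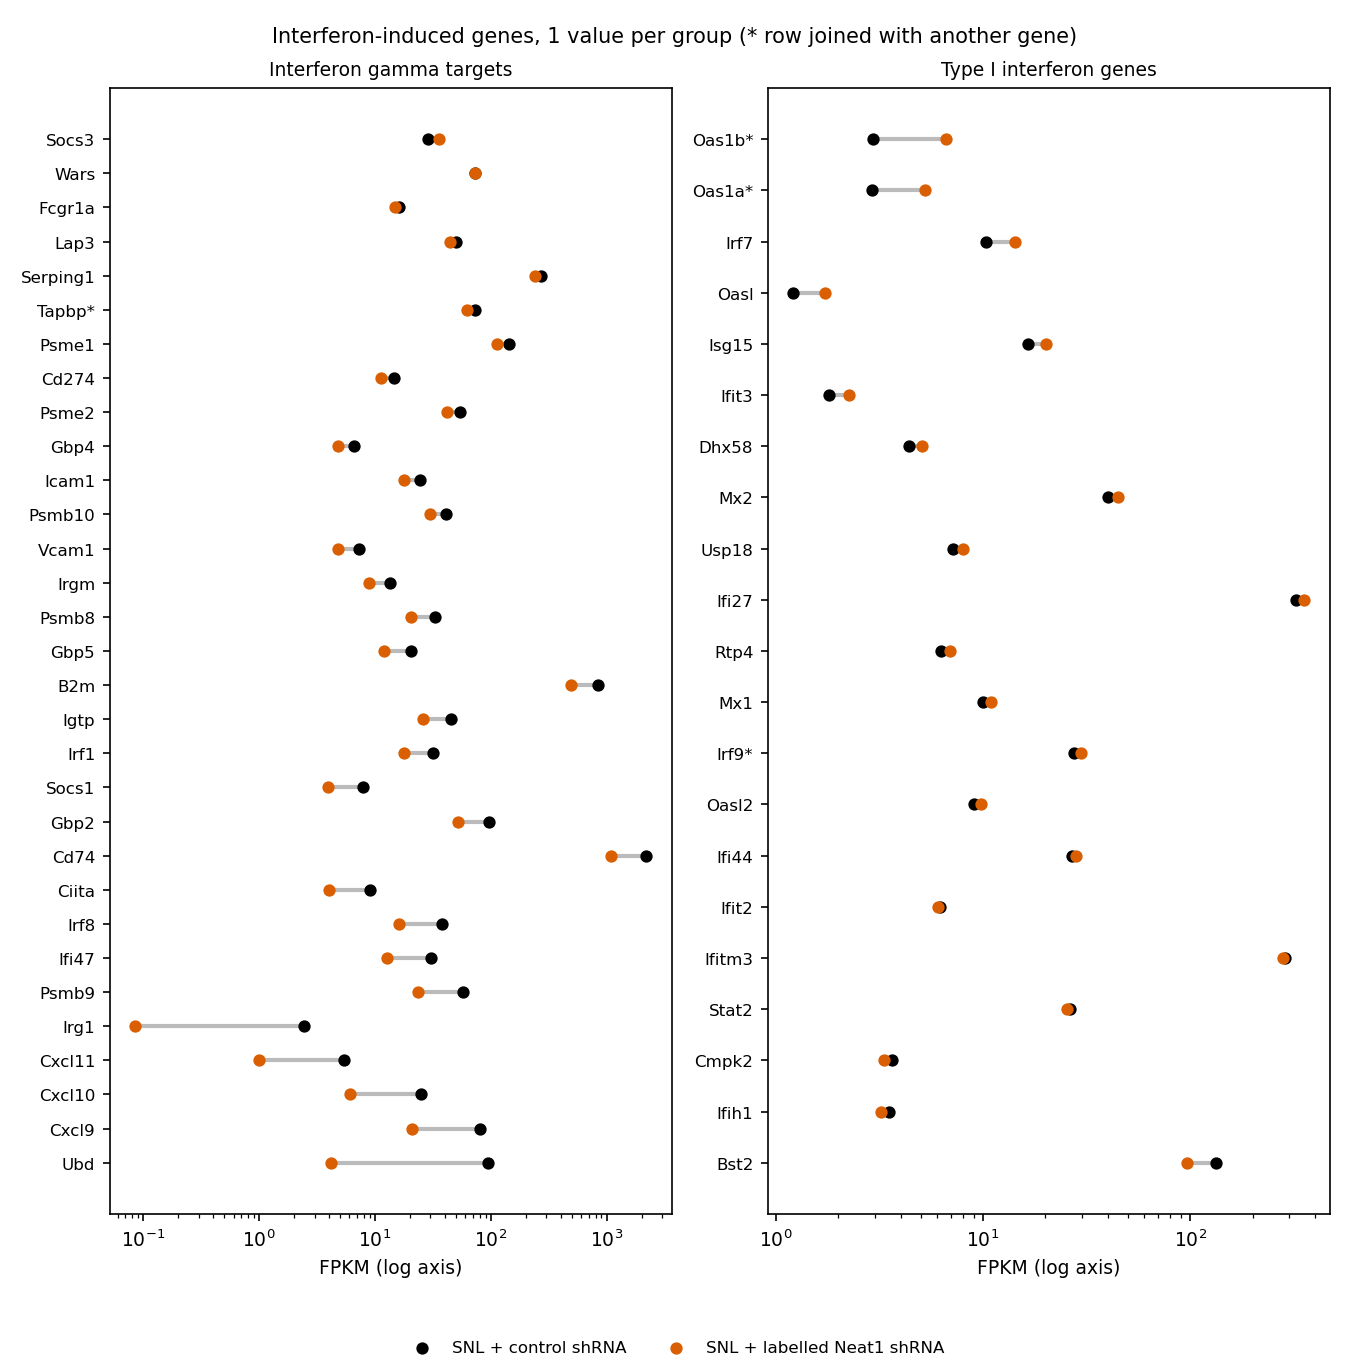
Levels of the measured interferon gamma targets (left) and type I interferon genes (right), in FPKM on a log axis, with black points for SNL + control shRNA and orange points for SNL + the labelled Neat1 shRNA, 1 value per group. In the left panel 17 of 31 genes were called lower and in the right panel none of 21, and both groups were formed after the values were seen and hold genes from outside the list.

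Interferon gamma targets also include the machinery of MHC class I, which shows peptides to CD8 T cells. Of 19 measured genes, 7 were called lower and 1 higher (median -0.49). The catalytic subunits that turn a proteasome into an immunoproteasome had 57.9 and 23.6 FPKM (Psmb9, -1.26), 32.9 and 20.5 FPKM (Psmb8, -0.66) and 41.2 and 29.9 FPKM (Psmb10, -0.45). The activator subunits Psme1 and Psme2 had 142 and 113 and 54.2 and 42.2 FPKM. None of the 14 constitutive core subunits was called (median -0.01), with Psmb1 at 195 and 195 FPKM and Psmb4 at 212 and 220.1 FPKM. B2m, the light chain of class I, stood at 359 FPKM in Control, 391 FPKM in SNL, 839 FPKM with control shRNA and 496 FPKM in the group labelled Neat1 shRNA (-0.76). The peptide transporter row that joins Tap1 and Tap2 had 28.6 and 15.5 FPKM. The class I heavy chains are near-identical copies whose reads can be divided between rows, so their values are uncertain. The joined row of RT1-A1 and RT1-A2 had 229 and 100.4 FPKM, and that of RT1-N2, the member called higher, 2.22 and 3.91 FPKM.

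Letters that interferon-activated factors are known to bind were looked for in the 250 bases before the RefSeq start of each gene (build GRCr8, both strands). A promoter was found for 8434 of the 11441 measured symbols. GAAA followed by any 2 bases and again GAAA, the core of the interferon-stimulated response element, was held by 3.41% of all 33469 promoters of the table and by 2.63% of those of measured symbols. It was held by 21 of 210 promoters of symbols called lower (10%), 1 of 47 of those called higher and 2.45% of the rest. TTCNNNGAA, the core of the gamma-activated site, was held by 7.67% of all promoters, by 5.87% of those of measured symbols, by 28 of 210 of symbols called lower (13.3%), 3 of 47 called higher and 5.67% of the rest. These shares are descriptions of letters in a window and name no bound site. The promoters of Cxcl10 and Gbp2, both called lower, and of Irf7 and Ifi27, neither called, all held the first motif, and are shown because the same letters stood before genes with negative and with positive differences. Capitals mark the motif, each sequence runs 5′ to 3′ towards the start, and those of Gbp2 and Irf7 hold it as its reverse complement.
Cxcl10, chr14:15988816-15989065, plus strand: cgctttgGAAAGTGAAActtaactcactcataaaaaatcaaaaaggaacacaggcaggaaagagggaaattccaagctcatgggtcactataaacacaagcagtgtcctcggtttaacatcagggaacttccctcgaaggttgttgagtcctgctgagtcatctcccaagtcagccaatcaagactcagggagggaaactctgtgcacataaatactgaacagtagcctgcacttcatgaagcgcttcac
Gbp2, chr2:234005477-234005726, plus strand: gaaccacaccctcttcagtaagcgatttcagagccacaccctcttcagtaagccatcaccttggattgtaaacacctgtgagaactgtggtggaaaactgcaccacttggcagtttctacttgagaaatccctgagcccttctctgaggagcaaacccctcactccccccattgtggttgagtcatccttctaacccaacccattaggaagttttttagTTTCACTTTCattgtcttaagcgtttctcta
Irf7, chr1:205800024-205800273, minus strand: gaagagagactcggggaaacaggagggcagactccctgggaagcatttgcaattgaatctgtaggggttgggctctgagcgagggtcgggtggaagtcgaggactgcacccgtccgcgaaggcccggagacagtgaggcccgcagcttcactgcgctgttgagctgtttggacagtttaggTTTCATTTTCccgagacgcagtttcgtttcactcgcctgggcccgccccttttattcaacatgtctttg
Ifi27, chr6:128355062-128355311, plus strand: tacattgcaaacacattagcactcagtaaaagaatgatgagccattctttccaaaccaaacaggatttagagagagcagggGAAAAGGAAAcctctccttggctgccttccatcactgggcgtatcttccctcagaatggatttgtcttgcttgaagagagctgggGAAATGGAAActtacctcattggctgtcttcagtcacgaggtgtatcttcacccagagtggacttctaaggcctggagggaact

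The motif began 243 bases before the start in Cxcl10, 31 in Gbp2, 69 in Irf7, and 169 and 84 in Ifi27. The promoters of Irf8 and Irf1, the transcription factors called lower among interferon gamma targets, held the second motif, at 180 and 161 bases before the start in Irf8 and at 142 in Irf1. They are shown with that motif in capitals (RefSeq, GRCr8).
Irf8, chr19:65699034-65699283, plus strand: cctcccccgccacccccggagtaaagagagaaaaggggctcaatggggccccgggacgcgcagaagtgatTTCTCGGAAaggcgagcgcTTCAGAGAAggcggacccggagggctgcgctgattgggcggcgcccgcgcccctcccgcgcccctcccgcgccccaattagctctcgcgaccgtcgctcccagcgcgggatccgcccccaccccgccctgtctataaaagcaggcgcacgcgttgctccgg
Irf1, chr10:38417685-38417934, plus strand: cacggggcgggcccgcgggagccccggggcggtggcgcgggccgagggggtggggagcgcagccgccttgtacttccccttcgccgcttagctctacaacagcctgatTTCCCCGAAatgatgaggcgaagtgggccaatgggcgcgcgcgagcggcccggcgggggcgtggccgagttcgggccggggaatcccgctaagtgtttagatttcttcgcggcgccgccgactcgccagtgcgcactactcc

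Most genes of innate sensing had small negative differences. All 14 measured genes of the NF-kB pathway had a negative difference (median -0.28), but only Traf1, an adaptor of TNF receptors and itself a target of the pathway, was called (6.78 and 3.28 FPKM, -0.86). The inhibitor and target gene Nfkbia had 49.3 and 34.1 FPKM and the subunit Rela 37.1 and 36.2 FPKM. Of 13 Toll-like receptors and adaptors, 1 was called lower (median -0.26), Ly86, which pairs with Cd180 (18.3 and 10.5 FPKM). The adaptor Myd88 had 16.7 and 14.7 FPKM. In the IL-1 family and the inflammasome 3 of 17 were called lower (median -0.32). Il1b, the secreted cytokine, stood at 0.514 FPKM in Control, 3.25 FPKM in SNL, 8.73 FPKM with control shRNA and 3.23 FPKM in the group labelled Neat1 shRNA (-1.20). The inflammasome adaptor Pycard had 31.7 and 20.7 FPKM and the protease Casp1 8.74 and 5.32 FPKM, and the sensor Nlrp3 was not called at 3.89 and 2.6 FPKM (-0.44). By its own criterion the study listed Nlrp3 as lowered by Neat1 knockdown. Il33, an alarmin of glia and stroma, was at 24.4 and 24.4 FPKM. In the IL-6 family only Lif, a cytokine induced in injured nerve, was called lower, with 0.302 FPKM in Control, 1.73 FPKM in SNL and 3.39 and 1.77 FPKM in the shRNA groups, and its receptor Lifr had 84.2 and 80.7 FPKM.

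Complement components mark synapses and debris for removal. Only C3, the central component, was called lower of 19 measured (5.26%, against 2.68% of all measured symbols), and the list median was -0.12. C3 had 0.788 FPKM in Control, 7.32 FPKM in SNL, 33.2 FPKM with control shRNA and 10.7 FPKM in the group labelled Neat1 shRNA (-1.54). The macrophage-derived C1qb had 153 and 130.4 FPKM, C2 61.5 and 42.9 FPKM, and the membrane inhibitor Cd59, strongly expressed by neurons and stroma, 436 and 438 FPKM. In prostaglandin synthesis and reception 2 of 18 were called lower. Ptgds, the lipocalin-type prostaglandin D synthase of meninges and glia, was the most abundant, at 325 FPKM in Control, 388 FPKM in SNL, 2317 FPKM with control shRNA and 1514 FPKM in the group labelled Neat1 shRNA (-0.61). The receptor Ptger2 had 2.38 and 1.07 FPKM, and Ptgs1, the cyclooxygenase COX-1, 8.36 and 6.1 FPKM (-0.40) without reaching the threshold. By its own criterion the study listed Ptgs1 as lowered by Neat1 knockdown.

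Schwann cells wrap axons in myelin, and the axon and glia are joined by adhesion complexes at the node of Ranvier and the paranode beside it. All 20 measured genes of these complexes had a positive difference (median 0.16), and 2 were called higher. Mag, an adhesion protein of the inner myelin wrap, stood at 14.1 FPKM in Control, 17.95 FPKM in SNL, 15.6 FPKM with control shRNA and 28.2 FPKM in the group labelled Neat1 shRNA (0.82). Cldn19, the tight junction protein of Schwann cells, had 50.6 and 82.3 FPKM (0.69). The nodal organizer gliomedin (Gldn) had 39.9 and 52.6 FPKM, and axonal partners were nearer to 0, with Cntn1 at 66.1 and 67.6 FPKM and Cntnap1 at 36.9 and 38.8 FPKM. In a group of 15 further myelin proteins formed after values were seen, all had a positive difference and 8 were called higher (median 0.62). The fatty acid-binding protein Pmp2 had 30.3 and 54.7 FPKM, the raft protein Mal 83.1 and 137 FPKM, Pllp 44.7 and 69.1 FPKM and Bcas1 21.4 and 37.3 FPKM. The list of myelin lipid synthesis showed a smaller difference (median 0.07 over 19). Its only call was Pllp, a myelin protein that is also in the group just described. The galactosylceramide synthase Ugt8 had 24.4 and 32.7 FPKM and the desaturase Scd2 651 and 660.4 FPKM. Among 21 Schwann cell and repair regulators, Pou3f1, a factor of the promyelinating stage, was alone called higher (13.01 and 23.5 FPKM, 0.81). The master regulator of myelination Egr2 was at 23.2 and 24.5 FPKM, Sox10 at 95.5 and 112 FPKM, and the repair factor Jun at 194 and 194 FPKM. Satellite glia genes had a median of 0.12, with the potassium channel Kcnj10 at 20.2 and 22.4 FPKM and the gap junction protein Gja1 at 18.7 and 12.6 FPKM. The member called higher was Car3, a carbonic anhydrase also made by muscle and fat, at 0.613 and 2.51 FPKM. It entered through the group labelled Neat1 shRNA alone.

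Sensory neurons express peptides, ion channels and an injury programme that follows axotomy. Of 39 measured injury and regeneration genes, 1 was called lower (2.56%, against 2.68% of all measured symbols) and none higher. Their median was -0.14, after 1.77 for SNL against Control. Of these, 28 lay below 0. The transcription factor Atf3, the usual mark of an axotomized neuron, stood at 13.1 FPKM in Control, 269 FPKM in SNL, 264 FPKM with control shRNA and 224 FPKM in the group labelled Neat1 shRNA. The muscle LIM protein gene Csrp3 had 124 and 86.6 FPKM (-0.51) and Sprr1a, a regeneration-associated gene, 56.8 and 41.2 FPKM (-0.45), neither called. Gap43, a growth cone protein, had 757 and 740.1 FPKM, and Sox11, a regeneration factor, 21.3 and 21.3 FPKM. The member called was Reg3g, a secreted lectin (4.17 and 0.153 FPKM), while its relative Reg3b had 42.3 and 49.9 FPKM. Reg3g entered through the control shRNA group alone.

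Of 27 measured neuropeptide genes 5 were called higher and none lower. Scg2, a granin of secretory vesicles, stood at 163 FPKM in Control, 7.61 FPKM in SNL, 9.1 FPKM with control shRNA and 17.7 FPKM in the group labelled Neat1 shRNA. Chga, another granin, had 10.9 and 18.6 FPKM, and the itch-related peptides Sst (0.926 and 1.99 FPKM), Nppb (0.332 and 1.09 FPKM) and Nmb (2.54 and 4.47 FPKM) were called from low levels, with Sst and Nppb under 1 FPKM in the control shRNA group. Substance P precursor Tac1, with 30.2 and 43.6 FPKM, was not called. Peptides that injury induces had negative differences without a call, with galanin (Gal) at 892 and 679.7 FPKM, Adcyap1, the PACAP precursor, at 90.3 and 60.8 FPKM and Cck at 23.9 and 16.03 FPKM. Of 15 sodium channel genes only Scn11a, the persistent-current channel Nav1.9 of nociceptors, was called, with 73.02 FPKM in Control, 1.06 FPKM in SNL, 2.19 FPKM with control shRNA and 4.3 FPKM in the group labelled Neat1 shRNA. Scn1a, encoding Nav1.1, and Scn8a, encoding Nav1.6, were not called at 1.06 and 1.97 FPKM and 5.01 and 7.01 FPKM. By its own criterion the study listed both as raised by Neat1 knockdown. None of 25 potassium channel genes was called (median 0.14), none of 16 calcium channel genes (median 0.04) and none of 27 TRP, acid-sensing, Piezo and purinergic channel genes (median 0.05). The heat receptor Trpv1, on a joined row, had 14.2 and 18.3 FPKM and the ATP receptor P2rx3 97.2 and 87.7 FPKM. Among transmitter-gated receptors the nicotinic subunit Chrna6 was called higher (0.842 and 2.14 FPKM, against 36.02 FPKM in Control), and among calcium-binding proteins Vsnl1 (3.82 and 7.15 FPKM). Chrna6 entered through the group labelled Neat1 shRNA alone. Camk2a, a calmodulin-dependent kinase, had 4.67 and 7.17 FPKM without a call, and the study listed it as raised. Synaptic and cytoskeletal genes showed small positive differences in most members and no call, 25 of 33 and 26 of 30 above 0 (medians 0.09 and 0.11). The neurofilaments Nefl and Nefh had 529.6 and 667 and 290.4 and 369 FPKM, and Tubb3, a neuronal tubulin, 3049.9 and 3205 FPKM.

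**Figure D4:**
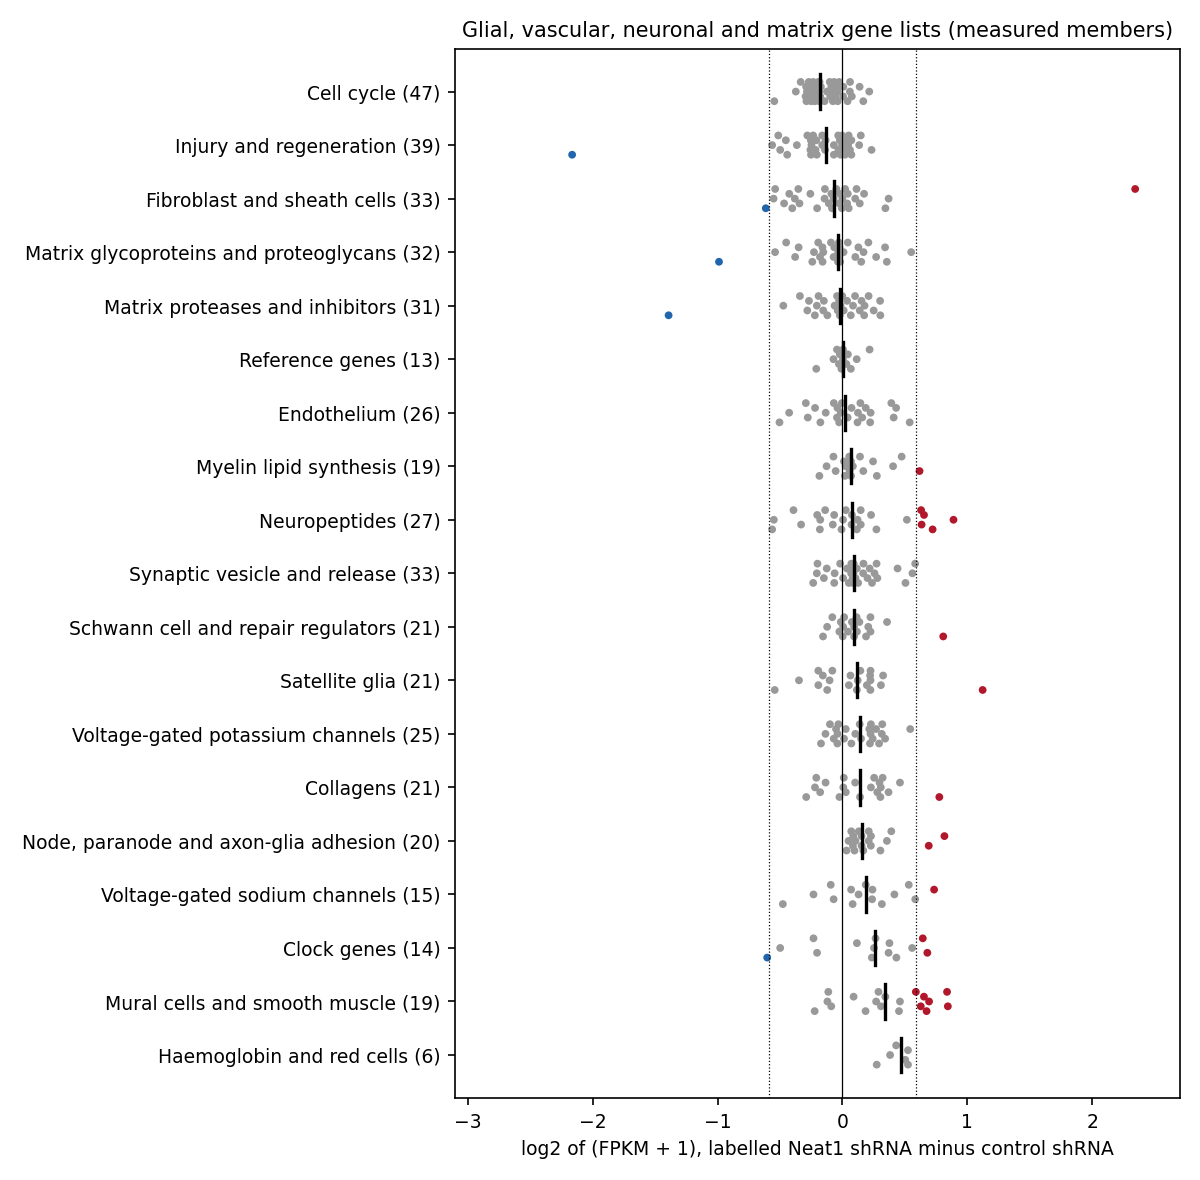
Points are the measured members of 19 glial, vascular, neuronal and matrix gene lists on the x axis as log2 of (FPKM + 1), labelled Neat1 shRNA minus control shRNA, with black bars at medians, dotted lines at 1.5-fold, blue for called lower and red for called higher. Medians run from -0.18 for the cell cycle to 0.47 for haemoglobin, and the point farthest right is Sfrp2, a secreted Wnt inhibitor, at 2.34.

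Contractile proteins of smooth muscle and the pericytes of capillaries form the wall of small vessels. Of 19 measured mural cell and smooth muscle genes 7 were called higher and none lower (median 0.34), where 0.699% of all measured symbols were called higher. Of these 7, Lmod1 entered through the group labelled Neat1 shRNA alone. Among the 18 members with at least 1 FPKM in both groups 6 were called higher (median 0.33). The smooth muscle actin Acta2 stood at 24.3 FPKM in Control, 27.1 FPKM in SNL, 31.2 FPKM with control shRNA and 56.5 FPKM in the group labelled Neat1 shRNA (0.84). The actin-binding proteins Tagln (66.8 and 106 FPKM) and Cnn1 (1.69 and 3.35 FPKM), smooth muscle myosin Myh11 (7.4 and 12.4 FPKM), Actg2 (2.3 and 4.92 FPKM), Lmod1 (0.949 and 2.01 FPKM) and the tropomyosin Tpm2 (32.02 and 48.6 FPKM) were the others. Pericyte genes lay below the threshold, with Rgs5 at 44.2 and 61.2 FPKM, Pdgfrb at 24.4 and 29.96 FPKM and Abcc9 at 2.72 and 2.96 FPKM. No endothelial gene was called of 26 (median 0.02), and the junction proteins Pecam1 and Cdh5 had 10.6 and 10.6 and 34.3 and 30.2 FPKM. Haemoglobin genes, which report blood left in the tissue, all had positive differences without a call, Hba1 at 796 and 1037 FPKM and Alas2, the haem synthesis enzyme of red cells, at 2.01 and 3.33 FPKM. Skeletal muscle myosin light chains Mylpf (0.318 and 1.63 FPKM) and Myl1 (0.4 and 1.36 FPKM) were called higher at low levels. Both entered through the group labelled Neat1 shRNA alone. The Tnnt3 row, called lower, is joined with the leukocyte gene Lsp1 (68.5 and 42.5 FPKM). The part of tissue taken with the ganglion in these differences was not tested.

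The circadian clock is a loop in which Arntl (Bmal1) with Clock or Npas2 drives the Per, Cry, Nr1d and Dbp genes. The Per, Cry and Nr1d products in turn repress it. Of 14 measured clock genes 2 were called higher and 1 lower (median 0.26). Dbp, a transcription factor driven directly by the loop, stood at 47.4 FPKM in Control, 57.6 FPKM in SNL, 62.1 FPKM with control shRNA and 100.03 FPKM in the group labelled Neat1 shRNA (0.68). The repressor Per2 had 4.68 and 7.87 FPKM (0.64), Per3 14.4 and 21.6 FPKM, Per1 20.4 and 26.7 FPKM, Tef 30.1 and 39.4 FPKM, Ciart 3.42 and 4.96 FPKM and Nr1d1 42.4 and 51.2 FPKM, all with positive differences. Genes of the opposite phase had negative ones, with Npas2 called lower (3.26 and 1.81 FPKM, -0.60), Arntl at 11.8 and 9.89 FPKM and the repressor Nfil3, also an injury gene, at 16.02 and 11.05 FPKM. In these sides, formed after values were seen, 8 of 8 genes of the Per and Dbp side were positive (median 0.40) and 3 of 4 of the Bmal1 side negative (median -0.37). The hour at which ganglia were taken is not given in the sources used here. CACGTG, the E-box to which the Bmal1 dimer binds, was held by 3 of 12 clock gene promoters and by 7.99% of those of measured symbols.

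**Figure D5:**
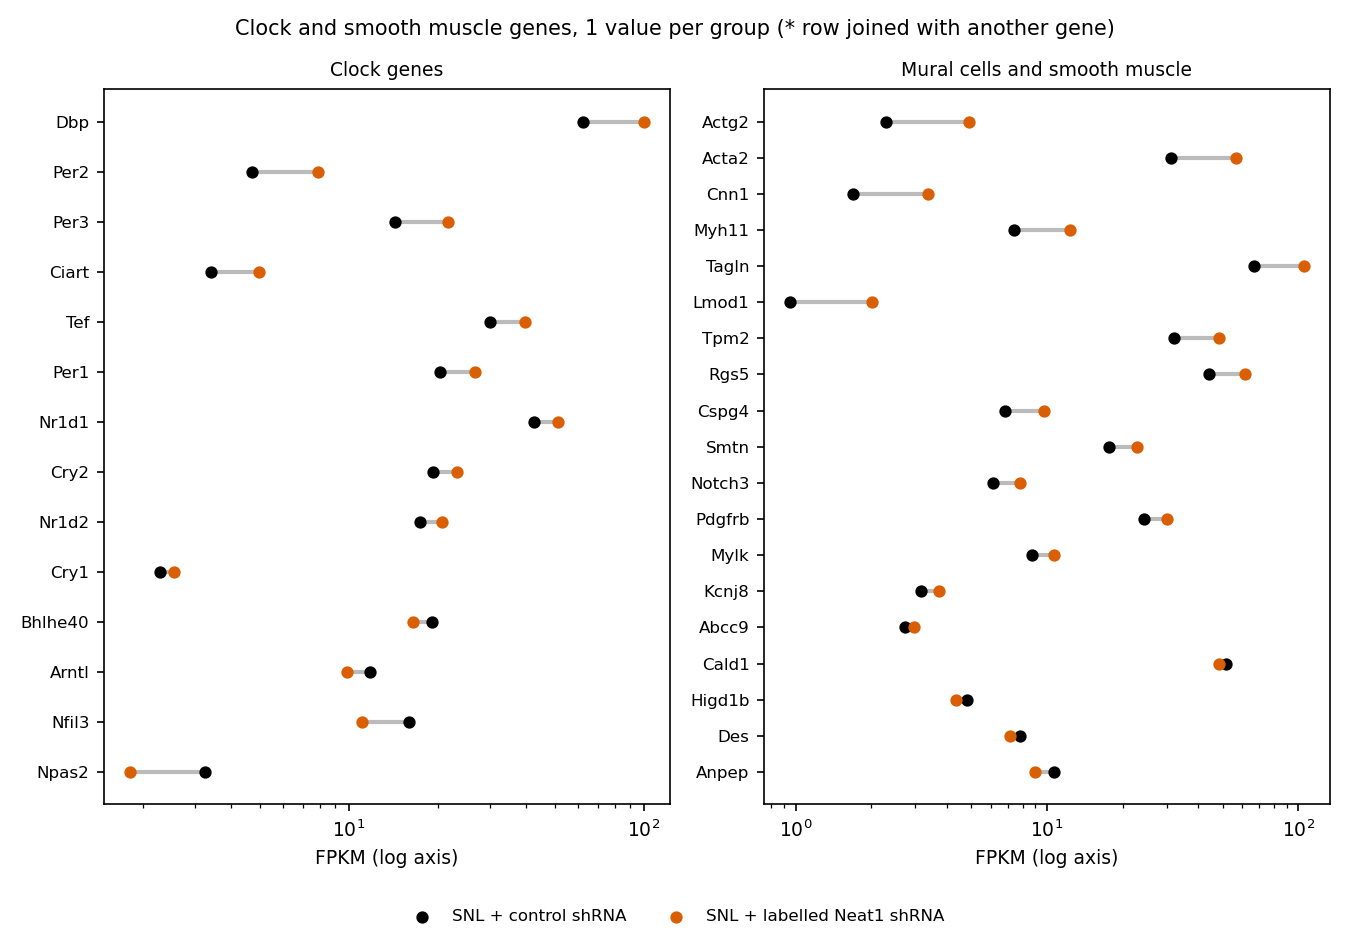
Levels of the measured clock genes (left) and mural cell and smooth muscle genes (right) in FPKM on a log axis, with black points for SNL + control shRNA and orange points for SNL + the labelled Neat1 shRNA, 1 value per group. Dbp and Per2 at the top of the left panel and 7 contractile genes at the top of the right panel were called higher, and Npas2 at the bottom left was called lower.

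Of 33 measured fibroblast and sheath genes, 22 lay below 0 and 11 above (median -0.07), with 1 called lower and 1 higher. Each call was 3.03% of the list, where 2.68% of all measured symbols were called lower and 0.699% higher. Dcn, a collagen-binding proteoglycan, had 767 and 753 FPKM and the apolipoprotein Apod 3846 and 4881 FPKM. Of 21 measured collagens only Col2a1, the cartilage collagen, was called higher (3.46 and 6.64 FPKM), and the fibrillar collagens Col1a1 and Col3a1 had 465 and 564 and 643 and 709 FPKM. Postn, a matrix protein of repair, was the 1 glycoprotein called lower of 32 (3.1%, against 2.68% of all measured symbols). It was at 2.69 FPKM in Control, 14.04 FPKM in SNL, 28.4 FPKM with control shRNA and 13.8 FPKM in the group labelled Neat1 shRNA. Among 31 measured matrix proteases and inhibitors only the gelatinase Mmp9, carried by leukocytes, was called lower (3.17 and 0.589 FPKM). That is 3.23% of the list, against 2.68% of all measured symbols. Mmp2, the gelatinase of fibroblasts, had 78.6 and 86.6 FPKM. Mmp9 entered through the control shRNA group alone. Among integrins the leukocyte chains Itgal (11.1 and 3.91 FPKM), Itgb7 (4.79 and 2.47 FPKM) and Itgb2 (14.5 and 9.15 FPKM) were called lower, and Itgb4, which anchors Schwann cells to their basal lamina, had 199 and 230.2 FPKM. In Wnt signalling 2 of 33 were called higher, of which the intracellular inhibitor Nkd1 had 7.56 and 12.1 FPKM, and the effector Ctnnb1 had 125 and 122 FPKM. In lipid handling the apolipoprotein Apoc1 was called lower (17.2 and 8.71 FPKM), the fatty acid-binding protein Fabp4 higher (3.39 and 7.7 FPKM), and Apoe was at 3843 and 4489 FPKM.

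Genes of cell division, protein folding and cell death mostly had negative differences. Of 47 cell cycle genes 38 were below 0 (median -0.18) and none was called. The proliferation marker Mki67 had 3.96 and 3.11 FPKM and the mitotic kinase Aurkb 4.25 and 2.59 FPKM. Of 26 genes of the unfolded protein response and export from the endoplasmic reticulum 23 were below 0 (median -0.13) and none was called. The transcription factor Xbp1 had 82.7 and 68.9 FPKM and the folding factor Creld2 26.6 and 18.6 FPKM. Apoptosis and p53 target genes were below 0 in 24 of 28, and there the leukocyte survival factor Bcl2a1 (29.6 and 14.1 FPKM) and the death-promoting Pmaip1 (7.67 and 4.49 FPKM) were called lower.

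Housekeeping classes, most of them abundant, had few differences past the threshold. None of 74 ribosomal protein genes (median -0.02), 65 oxidative phosphorylation genes (median 0.02), 28 genes of glycolysis and hypoxia (median 0.04), 31 heat shock genes (median -0.05) or 13 reference genes (median 0.0038) was called in either direction. Gapdh had 1250.4 and 1289 FPKM and Actb 1591 and 1376 FPKM. Lysosomal genes had 1 call of 37, Ctse, an aspartic protease of immune cells (7.26 and 3.76 FPKM), with Ctsb at 799 and 789.8 FPKM and Psap at 990.03 and 905 FPKM.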

How the data were processed

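RNA of the L5 DRG was sequenced from polyadenylated RNA libraries, 3 for each group. According to the study's methods, the authors aligned paired reads to the rat build rn5 with RefSeq genes and assembled transcripts. Cufflinks and rn5 are named in the submitters' processing notes. The authors deposited 1 table for the shRNA groups and 1 for Control and SNL, each with the FPKM of every group as 1 value over its libraries. The tables also hold the authors' fold changes, test statistics, p-values and q-values, which were not used.

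For each symbol the row with the highest mean FPKM was taken. Differences are log2 of FPKM + 1 (pseudocount 1), over symbols reaching an FPKM of 1 in either group, and a gene was called past a fold of 1.5. With 1 value per group no test was possible. In 1092 symbols with several rows the others were left out, 401 rows join neighbouring genes and are said to be joined, and 23 symbols that a spreadsheet turned into dates are not named. Symbols of the lists were looked up in the table, also under synonyms that RefSeq (GRCr8) gives for the gene, and that build was used only for names and promoters. Members and lists were chosen with earlier results of these data known. Named by rule are all measured members of lists of up to 8, otherwise up to 8 called members and the 2 most abundant, the 20 largest differences each way among symbols with an FPKM of at least 5, the Neat1 row and genes the study names. Other genes named were chosen after their values were seen. Many list members that the rule takes in are not reported here. Alternatives were other pseudocounts, filters, folds, a median scaling, the sum of rows, joined rows left out and list means. Python 3.11.15, numpy 2.4.6, pandas 2.3.3 and matplotlib 3.10.9 were used.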

Additional observations from a re-analysis of the deposited data

How the results depend on the processing

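No paired analysis was possible because the files hold 1 value per group, and for the same reason no replicate could be left out. The spread between rats, the depth of the libraries and thus the error of each difference are unknown. A fold of 2 left 118 symbols called lower and 11 higher. With a pseudocount of 0.1 there were 432 lower and 165 higher, and with a minimum FPKM of 5 in either group 188 lower and 54 higher. Without a filter, scaled to a median of 0, with rows summed or with joined rows left out, calls ran from 293 to 324 lower and from 75 to 84 higher. The scaling divided the values of the group labelled Neat1 shRNA by 0.998. Lists with a median at or below -0.2 numbered 11 to 16 under the alternatives. The median of the skeletal muscle list, which rests on few low genes, was -0.077 with the minimum FPKM of 5, opposite in sign to its 0.36 as reported, and no other list with a median at or beyond 0.2 in either direction changed sign under any alternative. Medians near 0 did change sign in other lists, and the mean over integrins and laminins was -0.11 where their median was 0.01. The pseudocount of 0.1 moved 6 list medians by over 0.1, the minimum of 5 moved 7 and no filter 4. With the pseudocount of 0.1 and with the minimum of 5, the median was -1.22 and -1.56 for lymphocyte chemokines, -1.28 and -0.48 for gamma-chain and IL-12 genes and -1.24 and -1.10 for T cell costimulation. For dendritic cells it was -0.95 and -0.82, and for the TNF superfamily -0.12 with the minimum of 5. A gene passes the minimum of 5 through the group where it is higher, as Ccr7 did (6.65 and 0.711 FPKM). The part of this selection in these medians was not tested. Among members with at least 1 FPKM in both groups, medians were -0.83 for lymphocyte chemokines, -0.38 for gamma-chain and IL-12 genes and -0.53 for T cell costimulation. The mean over interferon-stimulated genes was -0.20.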

Other observations

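Some of the larger differences lay in genes of the meninges and root sheath, a group formed after values were seen. Of 18 measured, 8 were called lower and none higher (median -0.56). The gap junction proteins Gjb2 and Gjb6 of leptomeningeal cells had 23.96 and 14.03 and 10.2 and 4.43 FPKM, with the control shRNA value first here and below. The amino acid transporter Slc6a20 had 30.5 and 15.4 FPKM, the retinol transporter Stra6 27.9 and 16.6 FPKM, the deiodinase Dio2 4.92 and 1.67 FPKM and the growth factor Igf2 30.5 and 18.2 FPKM. Gjb2 was at 3.02 FPKM in Control and 5.64 FPKM in SNL, and Igf2 at 6.18 and 10.2 FPKM. Cdh1 (32.5 and 36.9 FPKM) and Igfbp2 (53.4 and 69.5 FPKM) had positive differences.

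The GIMAP genes, GTPases of lymphocytes and endothelium that lie in 1 cluster, were all below 0, and 5 of 7 were called lower (median -0.64, formed after values were seen). Gimap7 had 11.1 and 3.28 FPKM and Gimap4 10.4 and 3.09 FPKM. Among genes in no list, the phospholipase Pla2g2d had 7.68 and 1.18 FPKM and the urea transporter Slc14a1 7.73 and 2.57 FPKM. Ubd, a ubiquitin-like modifier that cytokines induce, had the largest negative difference of those reaching 5 FPKM (94.4 and 4.19 FPKM, -4.20), against 1.02 FPKM in Control and 2.10 FPKM in SNL. The ficolin Fcnb had 12.5 and 2.61 FPKM, the CD45-associated protein Ptprcap 23.8 and 5.81 FPKM, the cathepsin Ctsw of cytotoxic cells 12.8 and 3.58 FPKM and the T cell receptor chain Cd3g 11.9 and 2.85 FPKM. MGC105649, on a row joined with Mir147, had 6.55 and 1.37 FPKM. The row that joins Slpi with its relatives, a protease inhibitor, had 164 and 44.4 FPKM. Of genes called higher, the Wnt inhibitor Sfrp2 had 8.94 and 49.5 FPKM, against 0.949 FPKM in Control and 2.77 FPKM in SNL. The metallothionein Mt3 had 40.7 and 80.99 FPKM, against 710.5 and 68.7 FPKM in the same order, and the myelin gene Ncmap 68.9 and 129.8 FPKM. The growth factor Fgf7 had 6.6 and 12.9 FPKM, the phospholipase Pla2g2a 6.11 and 11.5 FPKM and the Fc receptor-like Fcrl2 6.04 and 11.8 FPKM. Emid1 had 24.6 and 44.4 FPKM and Ddn, a protein of neuronal dendrites, 2.83 and 5.85 FPKM. Of the symbols called lower, 121 were in a list and 186 in none, and of those called higher 35 and 45. Mylk3, Ehmt1, Slc12a4, Mir142, Mir1249 and Pth2r were listed at 0 in the control shRNA group, and no fold is given for them.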
